A study of Mus musculus with 2 samples.

Results

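The clustered protocadherins are cell-surface adhesion proteins encoded by gene arrays named alpha, beta and gamma, and their messages were measured here in ribosome-bound RNA of the mouse dentate gyrus. All lines of both count tables whose symbol begins with Pcdha, Pcdhb or Pcdhg were taken. That gave 59 lines of 32531 gene lines in the tables, of which 16 were alpha, 21 beta and 22 gamma. Both libraries form 1 group without treatment: dentate gyrus tissue from adult animals of line OI82, genotype Lypd1-EGFP/Rpl10a. In such a line the ribosomal protein Rpl10a carries an EGFP tag under the regulatory sequence of Lypd1, so tagged ribosomes come from every cell type in which that transgene is active. Both libraries are immunoprecipitates of tagged polysomes, and no whole-tissue RNA was compared here. Strain, sex and the number of animals are not in the labels used here. The labels also leave unsaid whether replicates 1 and 2 came from separate animals or from pools, so the spread between them may be technical.

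In the alpha and gamma arrays each gene has its own large first exon, the variable exon, which encodes the extracellular, transmembrane and membrane-proximal part of the protein. It is spliced to small constant exons shared by the whole array, which encode a common cytoplasmic end. Beta genes are single exons without a constant part. A neuron is thought to switch on a small and largely random set of alternate isoforms, through promoters bound by CTCF and cohesin, and the proteins bind like with like between cells, so that branches of 1 neuron recognise each other as self. The C-type isoforms at the downstream end of the alpha and gamma arrays (Pcdhac1, Pcdhac2, Pcdhgc3, Pcdhgc4 and Pcdhgc5) are regulated differently and are expressed more uniformly across neurons. Bulk RNA averages over cells, and fewer cells using a gene cannot be told apart from less RNA per cell.

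The arrays lie side by side on the plus strand of mouse chromosome 18 (GRCm38). In GENCODE vM21 the alpha array runs from 36930285 to 37187657, the beta array from 37264938 to 37524479 and the gamma array from 37661793 to 37841873. Each alpha and gamma gene model has 4 exons, of which only the first is its own. The constant exons hold 2860 bases in the alpha array and 2119 bases in the gamma array. Reads there fit many genes at once, and HTSeq can put a read that overlaps several genes in a class called ambiguous, which held 1259114 counts in replicate 1 and 1291880 in replicate 2. How many of these belong to protocadherins cannot be read from the tables, and they were 97.1 and 109 times the 12973 and 11831 counts assigned to all members. Levels of alpha and gamma genes therefore rest on the variable exon, which is 2346 to 3028 bases long.

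Replicate 1 held 31309643 counts on gene lines and replicate 2 held 32711412. Levels are gene-line counts scaled to a library total of 1000000 (CPM), and genes are compared with each other per kilobase of the exon counted for them (CPM per kb). The labelled tissue fitted its granule cell markers in both libraries, since all 6 were detected with a summed level of 3506 CPM in each. The 6 GABAergic markers summed to 73.8 and 121 CPM, nearly all of it Gad1 (1566 and 2472 counts) and Gad2 (616 and 1401 counts), with Slc32a1 at 0.703 and 0.367 CPM. The 3 CA pyramidal cell markers summed to 291 and 276 CPM. The 5 astrocyte markers summed to 419 and 444 CPM, nearly all of it Slc1a2, and the 4 oligodendrocyte markers to 176 and 134 CPM. Several small lists differed between the libraries, with sums of 6.74 and 2.90 CPM for mossy cells, 6.07 and 15.0 CPM for oligodendrocyte precursors, and 36.4 and 62.1 CPM for Cajal-Retzius cells. Of the choroid plexus genes, Ttr had 182 and 4 counts and Kl had 1565 and 847 counts. Endothelial markers summed to 13.9 and 14.4 CPM. The serotonin neuron and microglial lists summed to between 0.795 and 1.28 CPM, with Slc6a4, Fev, C1qa and C1qb at 0 counts. The part of these other cells in protocadherin levels was not tested.

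Most clustered protocadherins were detected at low to moderate levels. Of the 59 lines, 43 reached 1 CPM in both libraries, against 38.1% of all gene lines. They were 20 of 21 beta, 21 of 22 gamma and 2 of 16 alpha lines. The median over the 43 detected members was 6.20 CPM, while that over all detected genes was 22.5 CPM. Per length these medians were 2.10 and 7.92 CPM per kb. Together the members took 414 CPM in replicate 1 and 362 CPM in replicate 2.

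Beta and gamma genes supplied nearly all counts. The beta array summed to 193 and 157 CPM (175 ± 24.9, SD, n = 2) and the gamma array to 196 and 181 CPM (188 ± 10.9). The alpha array summed to 25.8 and 23.8 CPM (24.8 ± 1.43). As shares of member counts these were 46.5% (95% Wilson interval 45.6 to 47.3) and 43.5% (42.6 to 44.4) for beta, 47.3% (46.4 to 48.1) and 49.9% (49.0 to 50.8) for gamma, and 6.24% (5.83 to 6.67) and 6.58% (6.15 to 7.05) for alpha. In CPM the ranges of beta and gamma overlapped, though gamma was above beta within each library, by little in replicate 1. The alpha sum lay far below both in each library. Summed per kb of counted exon, gamma stood at 75.0 and 69.0 and beta at 51.1 and 42.7, so that gamma was 1.47 and 1.62 times beta. That order depends on the length used, since per kb of coding sequence gamma was 0.871 and 0.982 times beta, and per kb of whole exons 0.816 and 0.902 times. The Wilson intervals hold counting error only and not the spread between libraries. They can be too narrow even for counting error, because reads without molecular identifiers are not independent molecules. The alpha sum also holds no counts from 3 genes to which no read was assigned, described below.

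**Figure D1:**
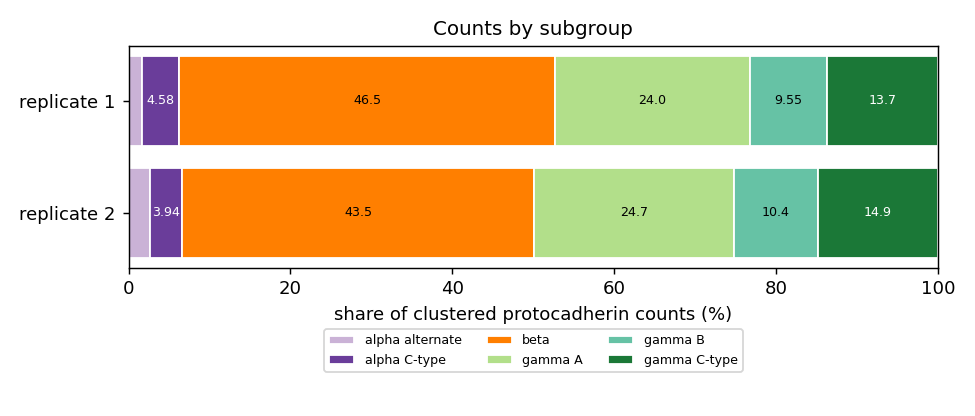
Horizontal bars show the share of all clustered protocadherin counts (percent, x axis) taken by each subgroup in replicate 1 and replicate 2, with values printed for shares above 3%. Beta genes took 46.5% and 43.5%, and the gamma A, gamma B and gamma C-type genes together took 47.3% and 49.9%.

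Pcdhgc5, the last variable exon of the gamma array (gene 37819513 to 37841873), was the highest member per length. Its 1530 and 1503 counts in replicates 1 and 2 correspond to 48.9 and 45.9 CPM, or 18.6 and 17.5 CPM per kb (18.1 ± 0.787). The libraries differed by a log2 ratio of 0.00 (95% counting interval -0.10 to 0.11). Its level per kb was 1.83 times that of the next member, Pcdhb16, in replicate 1 and 2.82 times in replicate 2, and the ranges of these genes did not overlap.

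The other gamma C-type genes were lower. Pcdhgc3, a C-type isoform whose variable exon lies between Pcdhga12 and Pcdhgc4, stood at 2.79 and 2.90 CPM per kb. It ranked 7 of 22 among the gamma genes, above their median of 2.13 CPM per kb. Pcdhgc4, which is required for neuronal survival in mouse, had 27 and 13 counts, or 0.862 and 0.397 CPM, and was the only gamma gene under 1 CPM in both libraries. Pcdhgc5 exceeded Pcdhgc4 by 62.8 times per kb in replicate 1 and 128 times in replicate 2, so that neighbouring promoters at the end of the array had the highest and the lowest gamma level.

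The alpha array showed the same position for its leading gene. Pcdhac2, the last variable exon of that array (gene 37143503 to 37187657), had 562 and 435 counts, which is 17.9 and 13.3 CPM, or 5.93 and 4.39 CPM per kb. It took 69.5% of alpha counts in replicate 1 and 55.8% in replicate 2. Its C-type neighbour Pcdhac1 stood at 1.02 and 0.948 CPM (0.399 and 0.370 CPM per kb), and Pcdhac2 was 14.8 and 11.9 times as high per kb. Pcdhac2 is known for its high expression in serotonin neurons, whose transporter gene Slc6a4 and transcription factor gene Fev had 0 counts here, with Tph2 at 1.28 and 0.795 CPM. Over both arrays the 5 C-type genes took 18.3% and 18.8% of member counts, most of it from Pcdhgc5 and Pcdhac2.

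The alternate alpha genes were low. Pcdha12, the alternate gene nearest to the C-type exons, was the highest, with 49 and 90 counts, or 0.632 and 1.11 CPM per kb. Pcdha5 followed at 0.395 and 0.625 CPM per kb (29 and 48 counts), with a range only just below that of Pcdha12. Pcdha10 had 45 and 20 counts, Pcdha8 had 34 and 24, Pcdha3 had 28 and 24, and Pcdha9 had 18 and 24. Their ranges overlapped from neighbour to neighbour in the order of levels. Pcdha1, at the upstream end, had 8 and 2 counts.

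Pcdha2 and Pcdha11 were nearly absent from replicate 1 and present in replicate 2. Pcdha2 had 3 and 46 counts, which gives 3.29 as the log2 ratio of replicate 2 to replicate 1 (95% counting interval 2.33 to 6.30). Pcdha11 had 1 and 35 counts and a log2 ratio of 3.64 (2.59 to 10.50). Of the 8 members with at least 10 summed counts and a mean under 1 CPM, 3 passed 2-fold, beside 57.9% of all genes in that range, and 2 passed 4-fold, beside 30.5%. These shares of members were not above those of other genes so thinly counted. The alternate alpha genes summed to 6.87 CPM in replicate 1 and 9.57 CPM in replicate 2.

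Pcdha4, Pcdha6 and Pcdha7 had 0 counts in both libraries, as did the lines Pcdha6-g and Pcdha7-g. Pcdha4, Pcdha6 and Pcdha7 share a feature of the RefSeq annotation. In RefSeq (GRCm38.p6) a readthrough gene, which joins an alpha variable exon to the constant exons of the gamma array, starts 41 bases from the start of Pcdha4, 6 bases from that of Pcdha6 and 9 bases from that of Pcdha7. The lines for these readthrough genes (Gm37013, Pcdha6-g and Pcdha7-g) were in the tables, also with 0 counts. None of the 9 alternate alpha genes without such a partner was at 0 in either library, though Pcdha11 had 1 count and Pcdha2 had 3 in replicate 1. In GENCODE vM21 the bases in no other gene were 93 for Pcdha4, 2507 for Pcdha6 and 2477 for Pcdha7. The part of the annotation in these zeros was not tested. A read in an exon that belongs to both genes can be ambiguous to HTSeq, depending on an overlap mode that is not given. The usual allowance for a count of 0 is 3 counts, or 0.0958 and 0.0917 CPM. It was not used here as a limit on these 3 isoforms. The annotation the authors used is not given in the sources used here.

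**Figure D2:**
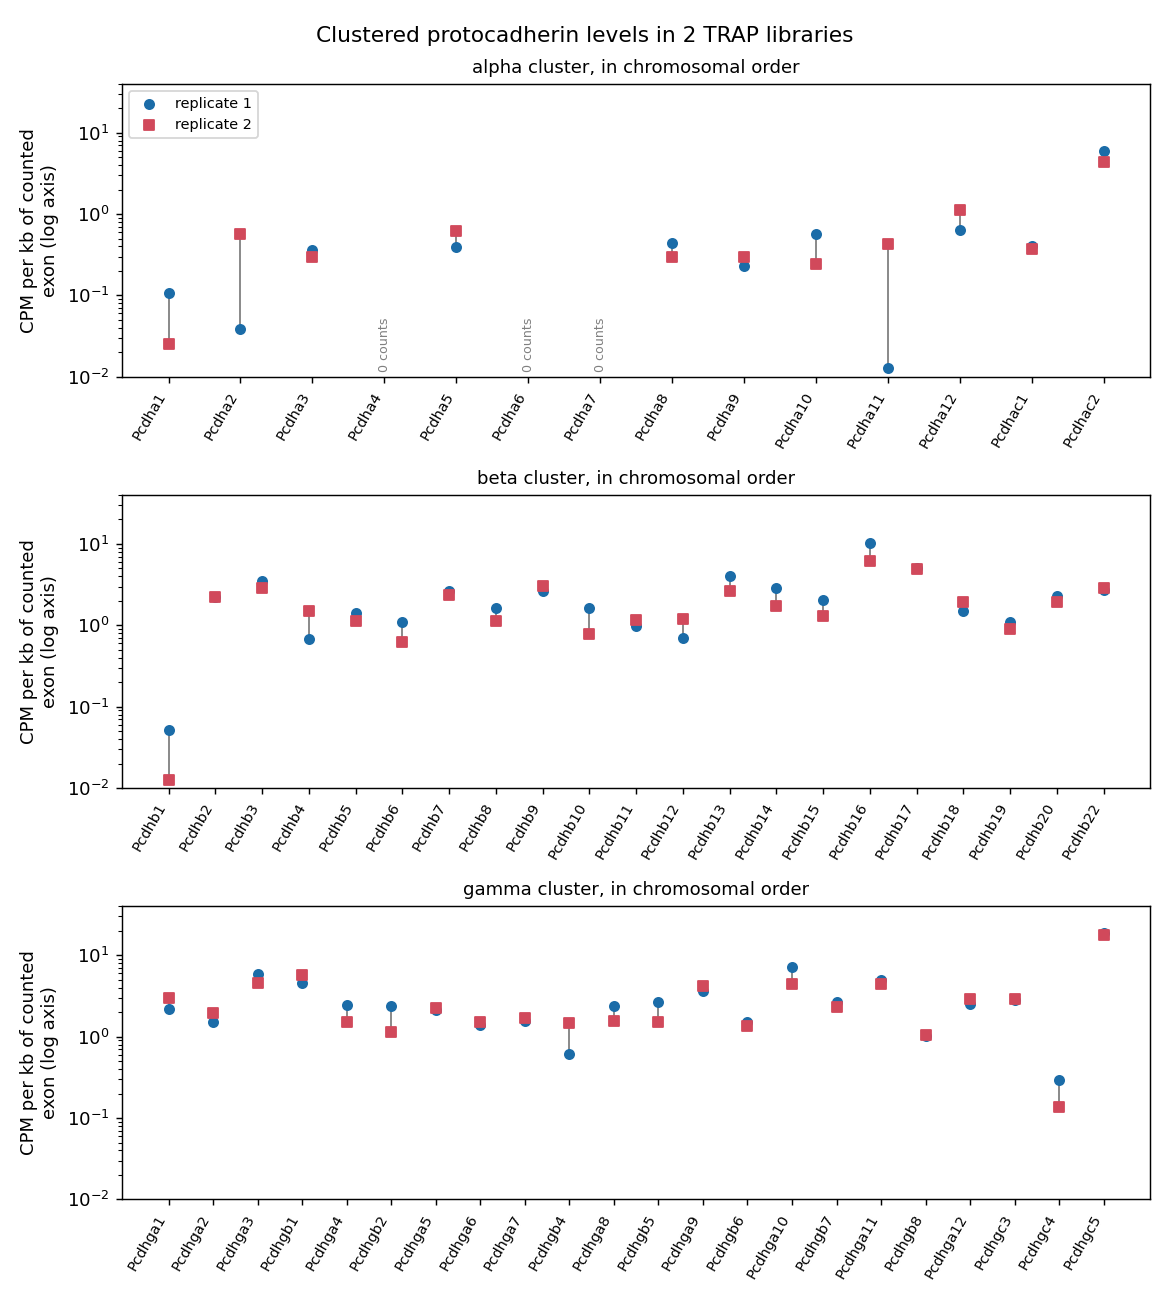
Level of each gene in CPM per kb of the exon counted for it (y axis, log scale) in chromosomal order (x axis) for the alpha, beta and gamma arrays, with a circle for replicate 1, a square for replicate 2 and a line joining them. Pcdhgc5 (18.6 and 17.5) and Pcdhac2 (5.93 and 4.39) stand highest in their arrays at the downstream end, Pcdhb16 leads the beta array, and Pcdha4, Pcdha6 and Pcdha7 have 0 counts.

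The beta array was led by Pcdhb16 (37477814 to 37483038). Its counts were 1680 and 1071, or 53.7 and 32.7 CPM and 10.2 and 6.21 CPM per kb. It took 27.9% and 20.8% of beta counts. Its neighbour Pcdhb17 came second and differed little between the libraries, with 514 and 533 counts, or 5.02 and 4.98 CPM per kb. Both values of Pcdhb16 lay above both values of Pcdhb17, by 2.03 times in replicate 1 and 1.25 times in replicate 2.

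Pcdhb13 (4.09 and 2.67 CPM per kb), Pcdhb3 (3.54 and 2.87) and Pcdhb9 (2.67 and 3.05) formed the next step of overlapping values. Of 20 neighbouring pairs in the order of beta levels, 16 had overlapping ranges. The others were Pcdhb16 over Pcdhb17, Pcdhb17 over Pcdhb13, Pcdhb22 over Pcdhb7, and Pcdhb6 (1.10 and 0.632) over Pcdhb1. Pcdhb22 (2.69 and 2.90) lay only narrowly over Pcdhb7 (2.64 and 2.37). Pcdhb1, the most upstream beta gene, had 4 counts and 1 count and stood at 0.0520 and 0.0124 CPM per kb. It was the lowest of the 54 counted members in the mean, with a range that overlapped that of Pcdha1.

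The gamma A and gamma B genes, which alternate along the array and differ in their variable exon sequence, were all detected. Per kb they spanned 1.03 to 5.83 CPM in the mean, while the counted alpha alternates spanned 0.0663 to 0.872 and the C-type genes 0.217 to 18.1. Pcdhga10 was the highest (7.25 and 4.41 CPM per kb), followed by Pcdhga3 (5.93 and 4.57), Pcdhgb1 (4.56 and 5.71) and Pcdhga11 (4.91 and 4.47). The ranges of these 4 genes overlapped from each to the next. Pcdhga9 (3.62 and 4.15) lay below them with a gap.

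The lowest of the gamma alternates were Pcdhgb8 (1.03 and 1.04 CPM per kb), Pcdhgb4 (0.614 and 1.48) and Pcdhgb6 (1.49 and 1.35). All 3 belong to the gamma B type, but the range of Pcdhgb6 overlapped that of the next gene, the gamma A gene Pcdhga6 (1.39 and 1.53). The 12 gamma A genes had a median of 2.38 CPM per kb and the 7 gamma B genes 1.78 CPM per kb. Gamma A genes took 50.8% and 49.4% of gamma counts, gamma B genes 20.2% and 20.7%, and C-type genes 29.0% and 29.8%. Gamma A genes thus held the largest share of gamma counts in both libraries, and they were also 12 of the 22 gamma genes.

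Counts were spread over many isoforms. An effective number, the exponential of the Shannon entropy of the shares of counts, gives how many equally abundant genes would show the same spread. It was 31.7 in replicate 1 and 34.3 in replicate 2 for all members. Within the 19 gamma A and B genes it was 16.1 and 16.5, and within the 21 beta genes 13.7 and 15.4. In the alpha array, where Pcdhac2 dominated, it was 3.45 and 5.01. The most abundant gene took 13.0% of member counts in replicate 1 (Pcdhb16) and 12.7% in replicate 2 (Pcdhgc5).

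In the order of all 54 counted members, 47 of 53 neighbouring pairs had overlapping ranges, so most ranks are not resolved by ranges from 2 libraries. Such ranges do not compare genes within a library. Pcdhb16 and Pcdhga10, for instance, overlapped, though Pcdhb16 was higher in replicate 1 (10.2 against 7.25 CPM per kb) and in replicate 2 (6.21 against 4.41). The 5 highest were Pcdhgc5, Pcdhb16, Pcdhga10, Pcdhga3 and Pcdhac2. In replicate 2 alone Pcdhgb1 and Pcdhb17 took the places of Pcdhga10 and Pcdhac2. Without a correction for length Pcdhb17 replaced Pcdhga3. Per kb of coding sequence Pcdhb16 came first and Pcdhgc5 second. A comparison between beta genes and the others also depends on how evenly reads fell along the transcript, which the tables do not show.

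The counted exons differed in base composition and in how much sequence they repeat. The counted exon was read for 57 genes from GENCODE vM21 transcripts, for beta genes only where it lies within the RefSeq gene. The share of guanine and cytosine had a median of 53.1% in alpha, 47.1% in beta and 52.5% in gamma exons. For each exon, the share of all windows of 50 bases that also occur in another member or in a transcript elsewhere was counted, since a read from such a window has more than 1 place to align. The class for reads without a unique alignment held 15.7% and 15.5% of all table counts, and the read length is not given in the sources used here.

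All 12 alternate alpha exons repeated part of their sequence, between 10.1% and 23.4% of windows, with a median of 14.9%. The 7 gamma B exons followed with a median of 11.6%, beta exons had 4.69% and gamma A exons 0.295%. None of the 5 C-type exons shared a window of 50 bases with any other. At windows of 100 bases the alternate alpha median fell to 5.45%, the gamma B median was 3.14%, and the highest value was 13.0% for Pcdha11. Pcdhgb1 and Pcdhgb2 were the closest pair by this measure, sharing 9.69% of the windows of Pcdhgb1. The alternate alpha exons thus had both the most repeated sequence and the lowest median level of the subgroups. That level, 0.329 CPM per kb, covers the 9 counted genes and leaves out Pcdha4, Pcdha6 and Pcdha7, which had 0 counts. Gamma B exons had a median level of 1.78 and beta exons of 1.73 CPM per kb. The part of non-unique alignments in these levels was not tested. Pcdhb1, with 4 counts in replicate 1 and 1 count in replicate 2, had no repeated window and the lowest mean level of the counted members.

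**Figure D3:**
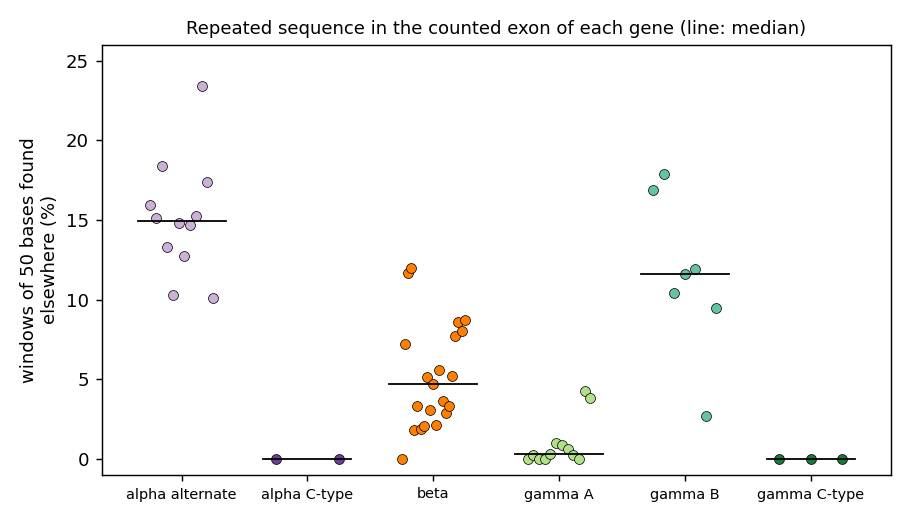
Share of windows of 50 bases in the counted exon that occur in another clustered protocadherin or in a transcript elsewhere (percent, y axis), with 1 point per gene by subgroup (x axis) and a line at the median. Alternate alpha exons lie between 10.1% and 23.4%, gamma B exons have a median of 11.6%, and all 5 C-type exons are at 0.

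Between the libraries the share of members past 2-fold was not above that of all genes. Log2 ratios (replicate 2 over replicate 1, TMM scaling, prior count of 2) compare these 2 libraries and not conditions. Of 45 members with a mean of at least 1 CPM, 22 were higher in replicate 2 and 23 in replicate 1, with a median log2 ratio of -0.04, beside -0.01 for all 13089 genes. Past 2-fold were 3 of the 45, beside 10.3% of all genes. Of these, 2 were higher in replicate 2 (4.51% of all genes) and 1 in replicate 1 (5.75%). The counting interval left out 0 for 28 of 45, beside 72.9% of all genes. For the 43 members from 1 to 20 CPM those counts were 3 and 27, beside 17.9% and 64.7% of genes in that range.

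The 3 genes past 2-fold came from different arrays. Pcdhgb4 had 49 and 123 counts, or 1.57 and 3.76 CPM, a log2 ratio of 1.32 (0.87 to 1.87). Pcdhb4 had 79 and 183 counts, or 2.52 and 5.59 CPM, a log2 ratio of 1.22 (0.85 to 1.64). Pcdha10 was the other way, with 1.44 and 0.611 CPM and a log2 ratio of -1.07 (-1.98 to -0.35). A 2-fold ratio is 1 on this scale, and Pcdhb10 (-0.95) and Pcdhgb2 (-0.95) lay just inside it. With library totals alone, which shift the median of all genes to -0.10, both of these passed and the count was 5.

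Neighbours of these genes on the chromosome had other ratios. On either side of Pcdhb4 stood Pcdhb3 (-0.21) and Pcdhb5 (-0.25). On either side of Pcdhgb4 stood Pcdhga7 (0.20) and Pcdhga8 (-0.53). Among beta genes 8 of 20 were higher in replicate 2, with a median of -0.17, and among gamma genes 12 of 21, with a median of 0.10, beside 49.2% of all genes. On library totals alone these were 6 of 20 and 11 of 21, with medians of -0.26 and 0.01, beside 41.5% of all genes. Whether beta and gamma genes differed in this was not tested. Marker sums of other cell types also differed between these libraries, as given above, and their part in the members' ratios was not tested. The most abundant genes differed as well, with Pcdhb16 at -0.62 (-0.73 to -0.51), Pcdhga10 at -0.62 (-0.81 to -0.44) and Pcdhac2 at -0.34 (-0.52 to -0.16), against 0.00 for Pcdhgc5.

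**Figure D4:**
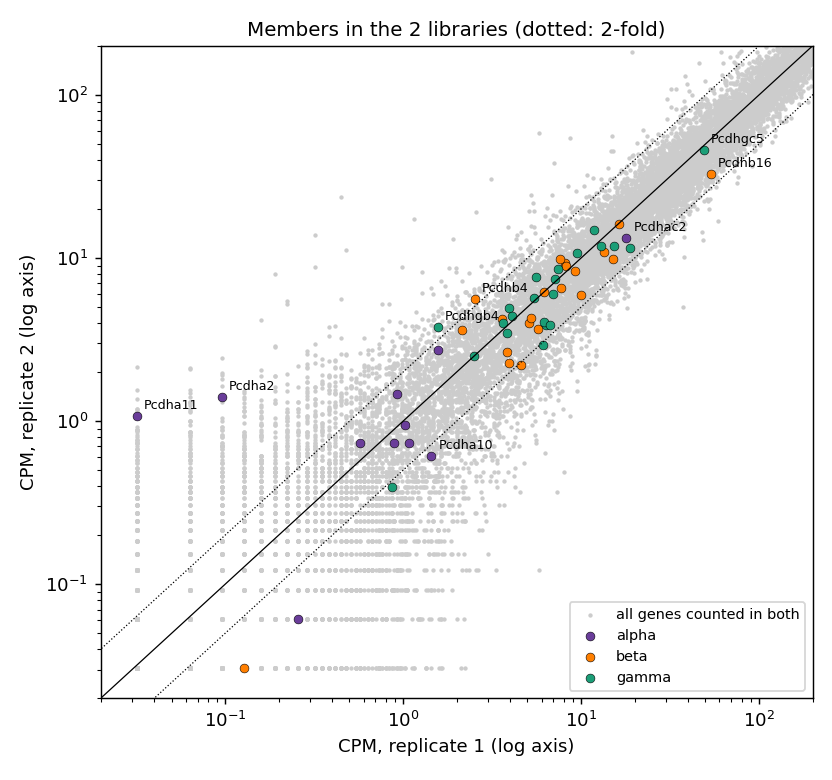
CPM of each gene in replicate 1 (x axis) and replicate 2 (y axis), both on log scales, with all genes counted in both libraries in grey and members colored by array. The solid line marks equal levels and dotted lines 2-fold, and most members lie between them, while Pcdha2 (0.0958 and 1.41 CPM) and Pcdha11 (0.0319 and 1.07 CPM) lie far above.

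Genes known to act on protocadherin promoters were present throughout. All 19 of this list were detected, with a median of 13.3 CPM per kb. Ctcf, which encodes the insulator protein that binds the alternate promoters and their enhancers, stood at 158 and 180 CPM. The cohesin subunits, which form loops with CTCF, were Smc3 (240 and 289 CPM), Smc1a (139 and 211 CPM), Rad21 (139 and 153 CPM), Stag1 (103 and 118 CPM) and Stag2 (58.4 and 63.4 CPM). The cohesin loader Nipbl (134 and 176 CPM) and the release factor Wapl (193 and 246 CPM, listed as Wapal) were of similar abundance.

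Silencing factors spanned a wide range. Smchd1, a chromatin protein that silences clustered protocadherins, was at 35.4 and 50.9 CPM, and the histone methyltransferase gene Setdb1 at 21.8 and 28.5 CPM. Dnmt3b, the DNA methyltransferase that acts on these promoters in the early embryo, was at 1.37 and 1.62 CPM, and the chromatin remodeller gene Hells at 1.66 and 1.86 CPM. All 19 had a log2 ratio above 0, from 0.01 to 0.79, with a median of 0.32, while 49.2% of all genes were above 0. On library totals alone 16 of 19 were above 0, as were 41.5% of all genes, with Mau2, Pds5b and Wiz below. None passed 2-fold.

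**Figure D5:**
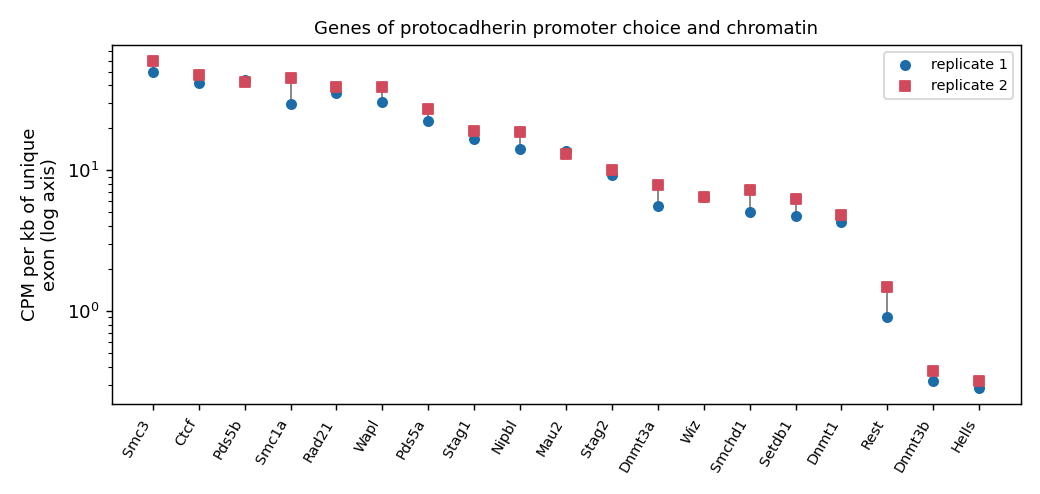
Level in CPM per kb of unique exon (y axis, log scale) of the 19 genes of promoter choice and chromatin (x axis, from high to low), with a circle for replicate 1 and a square for replicate 2. The cohesin subunit gene Smc3 is highest, at a mean of 54.6 CPM per kb, and Dnmt3b and Hells are lowest, at 0.346 and 0.300.

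Several partners of the cytoplasmic end were abundant, while Pdcd10 (33.4 and 30.9 CPM) and Axin1 (9.68 and 16.7 CPM) of the same list were lower. Alpha and gamma constant domains bind and inhibit the kinases encoded by Ptk2b and Ptk2, which stood at 1116 and 882 CPM and at 135 and 159 CPM. The WAVE complex drives branched actin assembly and is linked to alpha isoforms. Its most abundant genes in the list were Nckap1 (2188 and 2530 CPM), Cyfip2 (1740 and 1649 CPM), Wasf1 (940 and 667 CPM) and Abi2 (704 and 652 CPM). Lower were its genes Abi1 (288 and 288 CPM), Brk1 (147 and 153 CPM) and Cyfip1 (101 and 86.2 CPM). Rac1, the GTPase that activates the complex, was at 1721 and 1390 CPM. The list covers signalling genes and partners, among them Nlgn1 and Nlgn2. Of its 18 genes 17 were detected, and Ret was not, at 0.479 and 0.336 CPM. Marcks, an actin-binding substrate linked to gamma isoforms, was at 120 and 136 CPM. The log2 ratios of the list had a median of 0.01, with 9 of 17 above 0, beside 49.2% of all genes, and none past 2-fold, beside 10.3%.

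Clustered protocadherins are cut by the metalloprotease ADAM10 and then by gamma-secretase. Adam10 stood at 42.8 and 38.1 CPM, and the gamma-secretase genes Ncstn at 34.1 and 21.7 CPM and Psenen at 20.3 and 15.8 CPM. All 7 genes of this list were detected. In log2 ratio 1 of 7 was above 0 (Aph1b, at 0.56), beside 49.2% of all genes, and the median was -0.27. Aph1a (105 and 49 counts) was past 2-fold at -1.04, as were 5.75% of all genes in that direction. On library totals alone 1 of 7 was above 0, beside 41.5% of all genes, and the median was -0.37.

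Non-clustered protocadherins, which lie outside these arrays and signal through other cytoplasmic ends, spanned a wider range of levels. Of 12 such genes 10 were detected. The median over all 12 was 8.67 CPM per kb, against 1.73 CPM per kb for the counted clustered members. Below that clustered median were Pcdh11x (mean of 0.569 CPM per kb), Pcdh15 (0.519), Pcdh18 (0.210) and Pcdh12 (0.0144). Pcdh1 had a mean of 61.7 and Pcdh20 of 42.2 CPM per kb, both above the 18.1 CPM per kb of Pcdhgc5. Past 2-fold between the libraries were 2 of the 11 with a mean of at least 1 CPM, Pcdh8 (1001 and 3543 counts, log2 ratio 1.85) and Pcdh18 (1 and 70 counts, log2 ratio 4.60), beside 10.3% of all genes. The clustered array spreads its counts over many genes, and its summed level of 414 and 362 CPM was under the sum of 1173 and 1165 CPM for the 12 non-clustered genes. These sums are not corrected for length. Reads from the constant exons can also be missing from the clustered sum, so the sums are not like measures.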

How the data were processed

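The deposited values are raw counts per gene symbol, not normalised by the authors. The submitters' processing notes name HTSeq, the aligner STAR 2.0.0e and the mm10 build. Not given in the sources used here are the annotation, strand setting and overlap mode. Summary lines and a line named unknown were left out of totals. CPM used library totals, and SDs are over 2 libraries. A gene counted as detected at 1 CPM or more in each library. Log2 ratios used TMM scaling in edgeR 4.0.16 (R 4.3.3) with a prior count of 2, with exact Clopper-Pearson 95% intervals. The ratios, but not the intervals, were run on simulated data with planted 4-fold changes. The spread in that simulation was assumed and not taken from these libraries. DESeq2 1.42.0 size factors served as an alternative. With 1 group no test between conditions and no p-value was possible.

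Exon lengths came from GENCODE vM21 transcripts that carry a RefSeq accession, counting bases in no other gene. For the single-exon beta genes the RefSeq gene length was used. All members are covered by rule, and named members are those that lead, trail or neighbour each other in an array, the C-type genes, those under 1 CPM or past 2-fold, and members of the listed pathways. Members and lists were chosen with earlier results of these data known. Sequences of this locus are not printed here. Some genes of the pathway lists are not reported here.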

Additional observations from a re-analysis of the deposited data

Results flagged for a closer look

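Counts outside the gene lines, which no level used, also bear on these genes. In the ambiguous class there were 1259114 in replicate 1 and 1291880 in replicate 2, or 2.61% and 2.56% of all table counts, far above the allowance of 3 counts for an empty class. Reads from constant exons and from exons shared with readthrough genes can fall in it, and their number was not measured. The class for reads without a unique alignment held 7562287 and 7829068 counts, or 15.7% and 15.5%, and reads from repeated windows of the variable exons can fall there.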

How the results depend on the processing

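With 2 libraries of 1 group every value is a description, and leaving out 1 library leaves the other. No paired analysis was possible because there is only 1 group. The number of detected members (43) was 44 with totals that leave out Rn45s and Lars2, 49 at 0.5 CPM, 48 at 20 counts in both libraries and 46 in either library alone. Leaving out Rn45s and Lars2 raised the alpha sum to 26.4 CPM and the gamma sum to 200.2 CPM, more than 1 SD, since it scales all levels. In single libraries the sums ranged from 23.8 to 25.8 CPM for alpha, 157 to 193 CPM for beta and 181 to 196 CPM for gamma. Of the 5 highest members, 3 stayed per kb of coding sequence and 3 per kb of whole exon length, and 3 to 5 when 1 library was left out. The count past 2-fold (3) was 5 with library totals alone and 6 among members with a count in either library, which adds Pcdha1, Pcdha2 and Pcdha11. DESeq2 size factors, a prior count of 0.5 and a minimum of 20 counts each gave 3. The alternatives without the readthrough lines and with GENCODE beta lengths were chosen after seeing the data and gave 43 members and all 5 of the highest. The log2 ratio of gamma to beta in summed CPM per kb was 0.62 with the counted exons and 0.80 with GENCODE beta lengths, and turned to -0.11 per kb of coding sequence and -0.22 per kb of whole exons. These 3 lengths were also chosen after seeing the data.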
